A study of Mus musculus with 72 samples.

Results

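Transcripts of 10 acute phase proteins, Saa1, Saa2, Saa3, Orm1, Orm2, Hp, Hpx, Lcn2, Apcs and Crp, were followed in RNA-seq libraries of C57BL/6J mouse liver and suprachiasmatic nucleus (SCN). The members are the rows that carry these symbols, 10 of the 22823 genes of the liver table. The table of the SCN, the seat of the central clock in the hypothalamus, lists 15759 genes and 1 of the members, Hp. Mice of 8 to 12 weeks received a diet deficient in methionine and choline (MCD) or a control diet matched for energy. After 10 days of light and dark they spent the last of 11 days on the diet in constant darkness, and were killed at circadian time (CT) 0, 4, 8, 12, 16 or 20. There were 24 groups, each defined by a tissue, a diet and a time and each with 3 libraries, 2 of males and 1 of a female. Each diet thus had 18 libraries per tissue. Libraries were made from polyadenylated RNA with a stranded kit, from the left liver lobe and from laser-microdissected SCN. The protocol text speaks of male mice only, and sex was taken from the sample labels. The labels do not say whether a library holds RNA of more than 1 mouse.

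Acute phase proteins are plasma proteins, made mostly by hepatocytes, whose levels change within hours to days of infection or injury. Interleukin-6, acting through STAT3, and interleukin-1, acting through NF-kB, are the classical inducers, and C/EBP factors and glucocorticoids act with them. In the mouse the serum amyloid A proteins and serum amyloid P (Apcs) are strong responders, while C-reactive protein (Crp), the leading acute phase protein of humans, responds weakly. The MCD diet is a widely used model of fatty liver with inflammation. Methionine and choline are needed for phosphatidylcholine synthesis and for the export of fat from hepatocytes.

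Liver libraries held 52.6 to 86.7 M gene counts each (M, mega) and SCN libraries 23.3 to 79.8 M. The 7 hepatocyte markers together lay at 64540 to 132400 CPM (counts per M counts of the library) in liver. The 6 markers of SCN neurons together lay at 1493 to 3433 CPM in SCN. CPM are scaled by TMM, which places the median liver gene at a diet change of 0.02 log2. Scaled by library totals alone, that gene lay 0.27 log2 higher on MCD, so changes are relative to the median gene. The library labelled control CT08 (a), a male, stood apart from the other controls toward the MCD level and was kept as labelled, with values without it beside the results whose call or order it changes. A second column of the same name is called control CT08 (b). Of the MCD males, 3, labelled CT04 1, CT12 2 and CT20 1, stood apart by high Saa1, Saa2, Saa3 and Lcn2. Values without them, an alternative chosen after the data were seen, are given beside the results they move most. Liver libraries also fell into 2 kinds by mt-Nd6, a mitochondrial transcript, with 21 low (8 control, 13 MCD) and 15 high (10 control, 5 MCD). Bulk RNA does not tell fewer cells of a type from less RNA per cell.

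The files identify the members as ENSMUSG00000074115.6 (Saa1), ENSMUSG00000057465.6 (Saa2), ENSMUSG00000040026.9 (Saa3), ENSMUSG00000039196.3 (Orm1), ENSMUSG00000061540.4 (Orm2), ENSMUSG00000031722.11 (Hp), ENSMUSG00000030895.10 (Hpx), ENSMUSG00000026822.15 (Lcn2), ENSMUSG00000026542.7 (Apcs) and ENSMUSG00000037942.6 (Crp). Positions are those of GENCODE M21 on build GRCm38, matched by gene ID, because the build named in the submitters' processing notes, GRCm39, was not used here. The serum amyloid A genes lie together on chromosome 7: Saa3 at 46711998 to 46715700 and Saa1 at 46740497 to 46742980 on the minus strand, and Saa2 at 46751790 to 46754313 on the plus strand. Orm1 (63344560 to 63348163) and Orm2 (63362449 to 63365878) lie on chromosome 4. Apcs (172893961 to 172895041) and Crp (172698055 to 172833031) lie on chromosome 1, and the long Crp model overlaps the gene Gm38051 on the same strand. Hp lies on chromosome 8 (109575128 to 109579172), Hpx on chromosome 7 (105591613 to 105600137) and Lcn2 on chromosome 2 (32384633 to 32388252).

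RefSeq promoter windows on GRCm38.p6, from 250 bases before to 50 after the start, were given for 8 of the 10 members. They are shown for the serum amyloid A genes, which form 1 family, for Lcn2 and Apcs, which had the largest diet changes, and for Crp, whose time course differed between the diets. The windows lie at chr7:46742931-46743230 (Saa1, minus strand), chr7:46751583-46751882 (Saa2, plus), chr7:46715627-46715926 (Saa3, minus), chr2:32387690-32387989 (Lcn2, minus), chr1:172895005-172895304 (Apcs, minus) and chr1:172697806-172698105 (Crp, plus). Each is written 5′ to 3′ along the gene's strand, and capitals mark matches on either strand to TTNNGNAA, a pattern of C/EBP sites, or TTCNNNGAA, a pattern of STAT3 sites.
Saa1: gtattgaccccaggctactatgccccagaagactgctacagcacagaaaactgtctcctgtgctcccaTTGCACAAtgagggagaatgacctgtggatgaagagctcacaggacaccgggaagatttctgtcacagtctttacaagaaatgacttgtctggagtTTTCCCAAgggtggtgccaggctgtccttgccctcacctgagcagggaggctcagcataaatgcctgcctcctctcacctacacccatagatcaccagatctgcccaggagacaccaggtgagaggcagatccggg
Saa2: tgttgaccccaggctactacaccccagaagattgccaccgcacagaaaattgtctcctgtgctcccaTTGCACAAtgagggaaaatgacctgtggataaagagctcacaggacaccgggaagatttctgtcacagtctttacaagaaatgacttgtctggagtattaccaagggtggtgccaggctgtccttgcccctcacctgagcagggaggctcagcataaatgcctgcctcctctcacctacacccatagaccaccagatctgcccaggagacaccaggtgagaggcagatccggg
Saa3: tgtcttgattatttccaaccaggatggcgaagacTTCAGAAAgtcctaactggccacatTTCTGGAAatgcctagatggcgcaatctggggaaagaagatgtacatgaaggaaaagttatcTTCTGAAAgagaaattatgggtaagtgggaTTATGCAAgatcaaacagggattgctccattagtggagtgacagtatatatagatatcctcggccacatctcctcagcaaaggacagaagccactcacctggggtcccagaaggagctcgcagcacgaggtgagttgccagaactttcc
Lcn2: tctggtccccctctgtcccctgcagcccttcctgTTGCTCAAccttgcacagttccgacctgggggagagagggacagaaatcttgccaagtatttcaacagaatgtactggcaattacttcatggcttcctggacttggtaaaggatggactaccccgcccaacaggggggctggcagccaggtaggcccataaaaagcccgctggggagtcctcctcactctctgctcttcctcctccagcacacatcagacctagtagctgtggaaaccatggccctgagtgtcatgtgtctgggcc
Apcs: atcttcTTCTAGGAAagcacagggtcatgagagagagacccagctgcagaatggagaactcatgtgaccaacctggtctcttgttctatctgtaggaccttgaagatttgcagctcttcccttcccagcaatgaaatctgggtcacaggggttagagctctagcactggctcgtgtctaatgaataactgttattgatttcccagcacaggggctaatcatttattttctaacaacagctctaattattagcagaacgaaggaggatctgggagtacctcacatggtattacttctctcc
Crp: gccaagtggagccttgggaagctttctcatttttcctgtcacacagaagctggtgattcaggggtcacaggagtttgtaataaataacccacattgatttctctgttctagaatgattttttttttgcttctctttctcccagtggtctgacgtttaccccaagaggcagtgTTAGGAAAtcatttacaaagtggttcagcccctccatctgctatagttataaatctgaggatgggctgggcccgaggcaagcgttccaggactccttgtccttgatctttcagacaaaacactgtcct

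The Saa1 and Saa2 windows were identical at 287 of 301 aligned positions (95.3%), and the next most alike pair of member windows shared 51.3%. The C/EBP pattern was present in 7 of the 8 windows, all but that of Apcs, and in 40.7% of all 32817 windows of this length. Saa3 held 4 matches to it, and its match TTATGCAA is also a match to TTATGNAA, a pattern of D-box sites. That pattern occurred in 3.39% of all windows. The STAT3 pattern occurred in the window of Apcs alone among the members (8.29% of all windows). A pattern of NF-kB sites, GGGNNTT followed by NCC, was in none of the 8 and in 4.8% of all windows, and the E-box CACGTG was in none of the 8 and in 7.15%. A match describes letters and does not show binding.

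Levels per kilobase of exon spanned a wide range on the control diet. Hpx and Hp, the plasma carriers of haem and haemoglobin, were at 1596 ± 480 and 956 ± 196 CPM per kilobase (SD, n = 18), and Orm1 was at 552 ± 115. Crp (89.2 ± 13.2), Apcs (70.8 ± 25.9) and Orm2 (42.2 ± 12.8) followed, and Crp and Apcs did not differ beyond their spread. Saa1 was at 10.4 ± 2.54, Saa2 at 4.46 ± 1.65, Lcn2 at 3.30 ± 3.10 and Saa3 at 0.960 ± 0.361 CPM per kilobase. Saa2 and Lcn2 did not differ beyond their spread. On MCD, Apcs rose past Crp in this order, to 256 ± 94.5 against 73.1 ± 23.3 CPM per kilobase. Lcn2 stood at 18.0 ± 26.0, with a spread wider than its mean.

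A first comparison asked which members differed between the diets with all 6 times combined. The test was edgeR's, by quasi-likelihood, with p adjusted after Benjamini and Hochberg over all 20249 liver genes tested, and it called 7 of the 10 members. It called 46.6% of all genes (25.3% higher, 21.2% lower), so that diet calls were common throughout the liver. Scaled by library totals alone, 10633 genes were called higher and 1540 lower, against 5130 and 4296 with TMM. DESeq2 called 7 members and 48.0% of all genes. Apcs, Lcn2, Saa3, Hpx and Hp were higher on MCD and Orm1 and Crp were lower. For Saa1, Saa2 and Orm2 the diet effect over all mice did not pass the threshold.

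**Figure D1:**
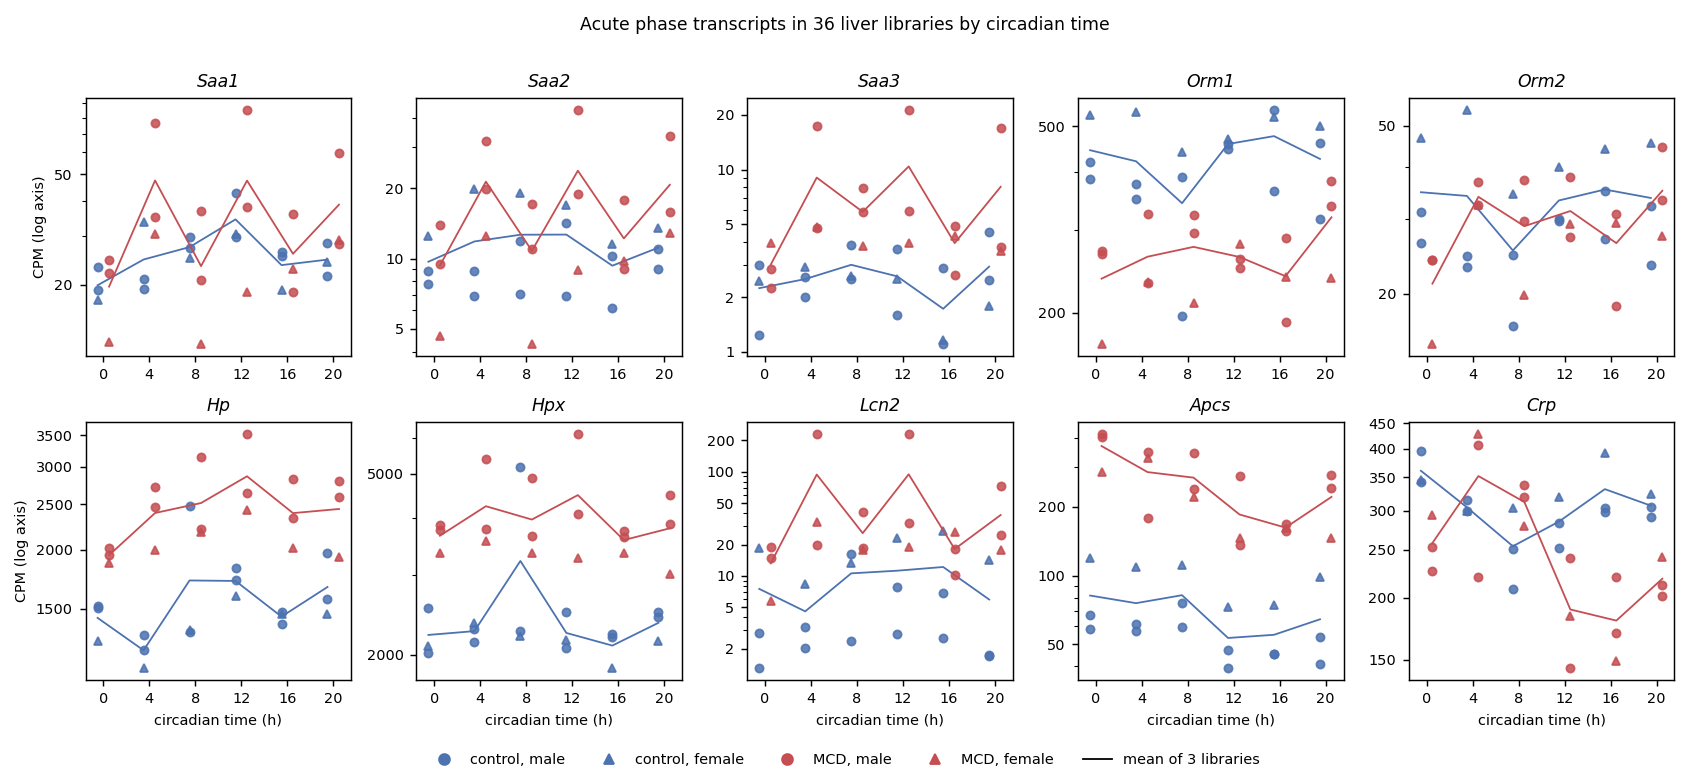
Level of each of the 10 transcripts in 36 liver libraries (y axis, CPM on a log axis) against circadian time (x axis, hours), with control libraries in blue, MCD libraries in red, circles for males, triangles for females and lines for the mean of 3 libraries. Apcs separates the diets at every time, while Saa1, Saa2, Saa3 and Lcn2 have a single high MCD male at each of CT4, CT12 and CT20.

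Apcs encodes serum amyloid P, a pentraxin that binds bacterial and nuclear debris and amyloid fibrils. Its transcript lay at 39.4 to 119.3 CPM (median 60.4) in the 18 control libraries and at 136.6 to 419.2 CPM (median 240.9) in the 18 MCD libraries. The diets did not overlap in any library. How common such separation of groups is among all genes was not counted, here or for the members below. The diet effect was 1.88 ± 0.15 log2 (SE, adjusted p = 2.62e-10), or 3.67-fold. It was called at all 6 times, with changes from 1.60 log2 at CT16 to 2.24 log2 at CT0. At single times the members called were 3 at CT0 (12.6% of all genes), 5 at CT4 (18.2%), 6 at CT12 (15.2%), 5 at CT16 (12.5%) and 3 at CT20 (11.3%). At CT8, where 1.3% of all genes were called, Apcs was the only member called, at 1.76 ± 0.36 log2 (adjusted p = 0.0119), and the call was lost without control CT08 (b) or MCD CT08 2. Without control CT08 (a), Hp and Hpx were called at CT8 as well.

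Lcn2 encodes lipocalin 2, which binds bacterial siderophores and is made by injured hepatocytes and by neutrophils. It lay at 1.31 to 27.2 CPM (median 5.04) on control and at 5.70 to 231.6 CPM (median 19.3) on MCD. The libraries labelled MCD CT04 1 and CT12 2 held 228.9 and 231.6 CPM, and MCD CT20 1 held 72.5 CPM, while no other MCD library passed 40.8 CPM. The ranges of the diets overlapped. The diet effect was 2.49 ± 0.52 log2 (adjusted p = 0.000362). It was 1.68 ± 0.39 log2 without those 3 libraries (adjusted p = 0.00126), and its call was lost without replicate 1 (1.95 log2, adjusted p = 0.0664) or 2 (1.62 log2, adjusted p = 0.0633). Among libraries with low mt-Nd6 it was 1.52 ± 0.63 log2 (adjusted p = 0.0917), and among those with high mt-Nd6 4.49 ± 0.88 log2 (adjusted p = 0.00761). The high kind holds 5 MCD libraries, which include MCD CT04 1 and CT20 1. At single times Lcn2 was called at CT4 alone, at 4.72 ± 1.29 log2 (adjusted p = 0.0128). That value was 2.50 log2 without MCD CT04 1 (adjusted p = 0.179), and the call was also lost without control CT04 1 or 2.

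Saa3, a serum amyloid A form made by macrophages and adipocytes as well as liver, was the lowest member. Its control libraries lay at 1.11 to 4.55 CPM (median 2.52) and its MCD libraries at 2.25 to 21.3 CPM (median 4.57). The highest were again MCD CT12 2 (21.3 CPM), CT04 1 (17.4 CPM) and CT20 1 (16.8 CPM), and the next highest MCD library held 7.94 CPM. In all, 9 MCD libraries lay above all controls and none lay below them. The diet effect was 1.29 ± 0.25 log2 (adjusted p = 0.000123). It was 0.80 ± 0.17 log2 without those 3 libraries (adjusted p = 0.000632). The calls at CT4 (1.75 ± 0.61 log2) and CT12 (1.91 ± 0.61 log2) were lost without MCD CT04 1 and MCD CT12 2 respectively, where the values were 0.99 and 0.95 log2. The CT4 call, at an adjusted p of 0.0465, was lost on leaving out any of 19 libraries, and the CT12 call was also lost without any of the 3 CT12 controls.

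Saa1 and Saa2 encode the main circulating serum amyloid A apolipoproteins, which ride on high-density lipoprotein. Saa1 lay at 17.6 to 43.0 CPM (median 25.2) on control and at 12.3 to 85.5 CPM (median 28.4) on MCD. Its diet effect was 0.27 ± 0.16 log2 (adjusted p = 0.174). Saa2 lay at 6.14 to 19.8 CPM (median 10.6) on control and at 4.32 to 43.4 CPM (median 13.3) on MCD, with a diet effect of 0.43 ± 0.24 log2 (adjusted p = 0.153). Within the high mt-Nd6 libraries the value for Saa2 was 1.16 log2 (adjusted p = 0.032), and within the low ones 0.10 log2 (adjusted p = 0.823). MCD libraries lay on both sides of the control range for both genes: 3 lay above all controls and 2 below all of them. The 3 above were MCD CT04 1, CT12 2 and CT20 1, at 76.8, 85.5 and 59.8 CPM for Saa1 and 31.8, 43.4 and 33.5 CPM for Saa2. Without them the effects were 0.03 log2 for Saa1 (adjusted p = 0.896) and 0.17 log2 for Saa2 (adjusted p = 0.582). Both were called higher with library totals alone (60.1% of all genes called), at 0.54 log2 for Saa1 (adjusted p = 0.0102) and 0.69 log2 for Saa2 (adjusted p = 0.0215). Without replicate 3, which is the female of each liver group, the effects were called, at 0.54 log2 for Saa1 (adjusted p = 0.0328) and 1.05 log2 for Saa2 (adjusted p = 0.00112). Without replicate 1 the value for Saa2 was -0.12 log2 (adjusted p = 0.859). The genes are near-identical copies, and how reads that match both were counted is not given in the sources used here.

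Hp encodes haptoglobin, which captures free haemoglobin, and Hpx encodes hemopexin, which captures free haem. Hp lay at 1124 to 2476 CPM (median 1469) on control and at 1871 to 3525 CPM (median 2381) on MCD. Hpx lay at 1871 to 5188 CPM (median 2211) on control and at 3013 to 6134 CPM (median 3756) on MCD. The highest control of both was the library labelled control CT08 (a). With it set aside, all 18 MCD libraries lay above every control for Hpx, and 15 of 18 for Hp. The diet effects were 0.66 ± 0.07 log2 for Hp (adjusted p = 1.65e-08) and 0.73 ± 0.09 log2 for Hpx (adjusted p = 2.17e-07), or 1.58-fold and 1.66-fold. Without control CT08 (a) they were 0.70 and 0.80 log2. Hpx was called at 5 of 6 times and Hp at 4, and each had a positive change at all 6. The calls of Hpx at CT0, CT16 and CT20 and that of Hp at CT20 were each lost without any of at least 4 single libraries, with adjusted p up to 0.164. On MCD every female (3013 to 3561 CPM) lay below every male (3628 to 6134 CPM) for Hpx, a difference of -0.36 ± 0.13 log2 that was not called (adjusted p = 0.211). It was called without control CT08 (a), at the same size (adjusted p = 0.0299).

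Orm1 and Orm2 encode orosomucoids, or alpha-1-acid glycoproteins, which bind basic drugs and lipids. Orm1 lay at 197.3 to 542.0 CPM (median 444.1) on control and at 171.9 to 382.6 CPM (median 264.0) on MCD. The lowest control was control CT08 (a), and the next lowest control held 316.6 CPM. The diet effect on Orm1 was -0.68 ± 0.11 log2 (adjusted p = 9.72e-06), or 0.62-fold, and -0.74 ± 0.09 log2 without control CT08 (a). It was negative at all 6 times and was called at CT0, CT12 and CT16. Each of these calls was lost on leaving out any of several single libraries of its own time, with adjusted p up to 0.13 at CT0. With library totals alone it was -0.42 log2 (adjusted p = 0.000491).

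Orm2 lay at 16.8 to 54.5 CPM (median 30.6) on control and at 15.2 to 44.5 CPM (median 29.6) on MCD, a diet effect of -0.13 ± 0.13 log2 (adjusted p = 0.444). Its direction depended on how reads were counted. Summed over exon bins, which the authors deposited as separate files, Orm2 was called higher on MCD, at 0.84 log2 (adjusted p = 0.029, against 39.8% of 20595 genes called). Library totals alone also gave a positive value, 0.14 log2, that did not pass the threshold. In libraries with both files, bins held 25.2% of the Orm2 gene counts on control and 45.7% on MCD. The same share was 16.8% in control males, 31.6% in control females, 46.7% in MCD males and 43.4% in MCD females. For Orm1 it was 104.2% on control and 102.5% on MCD. Among the other members the diets were farthest apart for Saa3 (99.7% and 103.2%) and Lcn2 (129.2% and 132.5%). Orm2 values from either table are therefore uncertain.

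**Figure D2:**
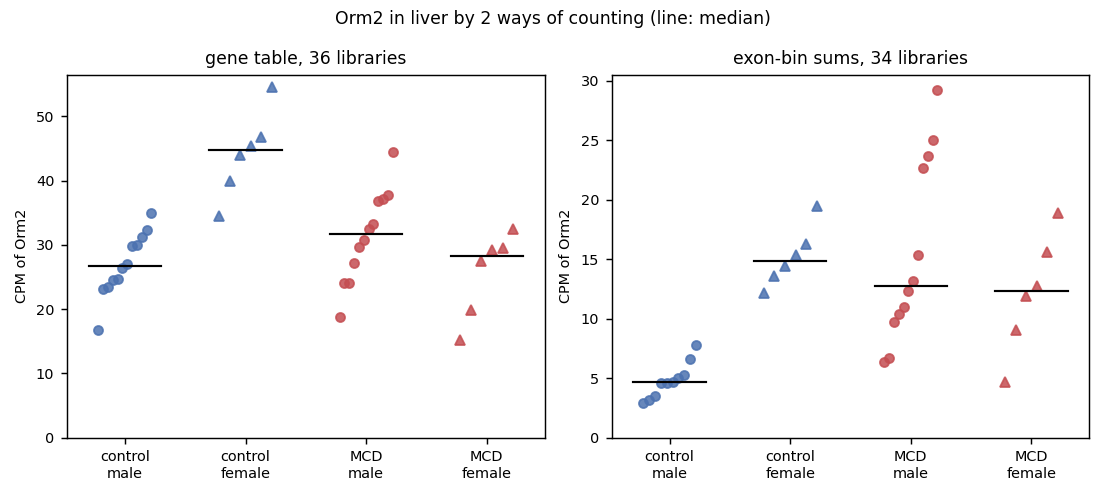
Level of Orm2 (y axis, CPM) in liver libraries by diet and sex (x axis), sorted by level within a group, from the gene table at left and from summed exon bins at right, where control CT00 1 and 2 are missing; lines are medians. Control males have a median of 26.7 CPM in the gene table and 4.66 CPM in the bins, and MCD males have 31.7 and 12.7 CPM.

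Crp encodes C-reactive protein, a pentraxin that binds phosphocholine on damaged cells and bacteria. It lay at 208.3 to 394.6 CPM (median 303.3) on control and at 144.6 to 428.7 CPM (median 233.8) on MCD. Of the MCD libraries, 5 lay below all controls and 2 lay above all of them. The diet effect was -0.32 ± 0.08 log2 (adjusted p = 0.00141), or 0.80-fold. With library totals alone it was -0.07 log2 (adjusted p = 0.329), so that the fall of Crp rests on the scaling. Within the low and the high mt-Nd6 libraries it was -0.38 log2 (adjusted p = 0.109) and -0.37 log2 (adjusted p = 0.0725).

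Daily rhythm was tested by a cosine and sine of 24 h fitted through the means of the 6 times. None of the 10 members was called rhythmic on control by edgeR, DESeq2 or limma-voom, and none had an unadjusted edgeR p under 0.05, while 17.8% of all genes were called. On MCD, where 28.2% of genes were called, Crp and Apcs were rhythmic. Crp on MCD had a peak-to-trough change of 0.96 log2 with a peak at CT 4.2 (adjusted p = 0.000206). On control its change was 0.36 log2 (adjusted p = 0.224). The difference in rhythm between the diets was called for Crp alone among the members (1.09 log2, adjusted p = 0.0137, against 4.87% of genes), and it stayed called without any single library. With the replicate number as a block it was 0.99 log2 and no longer called (adjusted p = 0.0533). It was also lost without replicate 2 (0.85 log2, adjusted p = 0.449) or replicate 3 (1.02 log2, adjusted p = 0.112), and the rhythm of Crp on MCD was lost without replicate 2 (0.77 log2, adjusted p = 0.0678).

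The values of Crp behind this were widest at CT4 on MCD, at 220.9, 406.6 and 428.7 CPM, of which the lowest was MCD CT04 1. At CT8 the MCD libraries held 318.9, 337.7 and 279.7 CPM, and at CT12 they held 240.5, 144.6 and 183.6 CPM. At CT16 they held 220.3, 170.2 and 149.6 CPM. On MCD, libraries of CT8 thus lay above all those of CT12 and CT16. Control means ran from 254.2 ± 47.6 CPM at CT8 to 360.8 ± 29.3 CPM at CT0. The diet effect on Crp was accordingly called lower at CT12 (-0.58 ± 0.19 log2, adjusted p = 0.0405) and CT16 (-0.87 ± 0.19 log2, adjusted p = 0.0042), with values of 0.20 log2 at CT4 and 0.31 log2 at CT8 that did not pass. The CT12 call was lost on leaving out any of 5 libraries of that time.

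Apcs on MCD fell from 369.8 ± 73.0 CPM at CT0 to 162.4 ± 5.51 CPM at CT16 (n = 3 each). Its peak-to-trough change was 1.04 log2 with a peak at CT 2.4 (adjusted p = 0.0205). The call was lost without MCD CT04 2 or MCD CT16 3. On control the change was 0.64 log2 with a peak at CT 3.2 (adjusted p = 0.237), and the difference between the diets was not called (0.43 log2, adjusted p = 0.841). Hp on MCD was not called (0.38 log2, adjusted p = 0.0898), and was called without control CT08 (a), at 0.39 log2 (adjusted p = 0.0213).

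A further comparison asked whether males and females responded differently to the diet. Among males alone 9 of the 10 members were called for diet (39.6% of all genes) and among females 7 (24.8%). The interaction of sex and diet was called for Saa2, Orm2, Lcn2 and Apcs, 4 of 10 members, against 1.77% of all genes. The change on MCD was less positive or more negative in females for all 4. Each time had 1 female per diet, so these tests compare 6 females with 12 males on each diet. Leaving out replicate 1 lost the calls of Saa2, Orm2 and Lcn2, and leaving out replicate 2 lost those of Orm2, Lcn2 and Apcs.

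**Figure D3:**
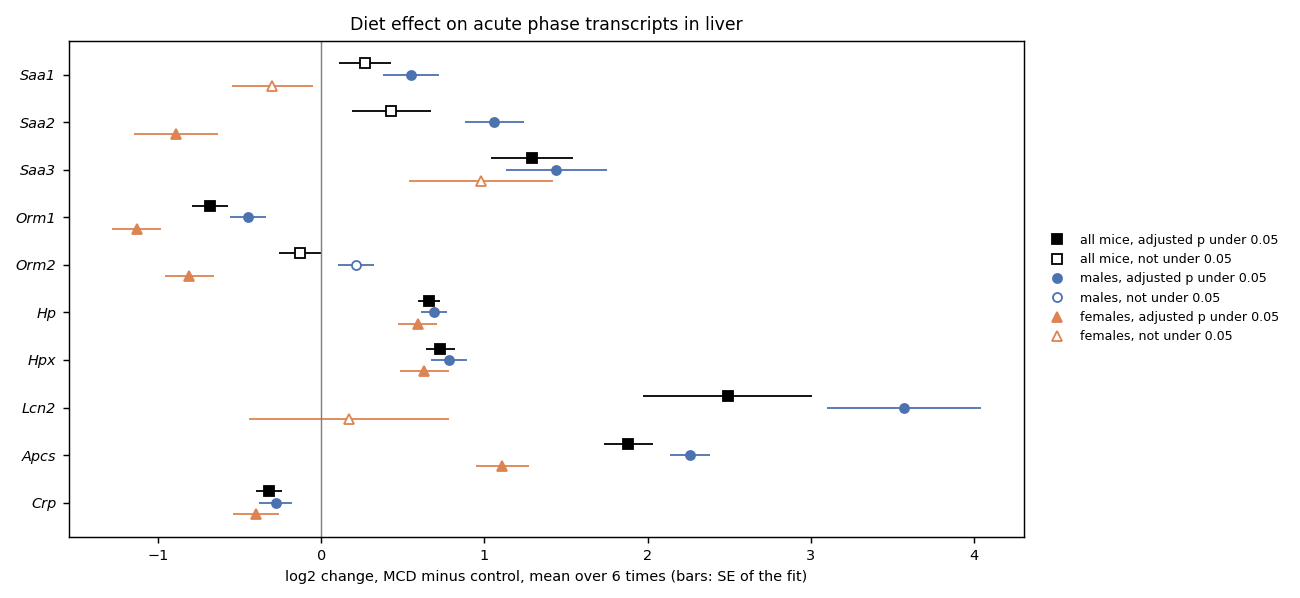
Diet effect on the 10 transcripts in liver (x axis, log2 change of MCD over control averaged over 6 times, bars are standard errors of the fit), for all mice (black squares), males (blue circles) and females (orange triangles), with filled symbols where the adjusted p was under 0.05. Saa2 lies at 1.06 in males and -0.89 in females, and Lcn2 at 3.57 and 0.17.

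Lcn2 lay at 1.31 to 16.1 CPM (median 2.66) in control males and at 8.43 to 27.2 CPM (median 16.4) in control females. On MCD, males lay at 10.2 to 231.6 CPM (median 22.3) and females at 5.70 to 33.1 CPM (median 18.3). Control females thus lay near the level of the MCD groups. With control CT08 (a) set aside, every control female lay above every control male. Control females were 2.24 ± 0.52 log2 higher than control males (adjusted p = 0.00604), in a contrast that called 4 members and 9.87% of all genes. The diet effect was 3.57 ± 0.47 log2 in males (adjusted p = 2.86e-06) and 0.17 ± 0.61 log2 in females (adjusted p = 0.893). Without the 3 MCD males of high Lcn2 the effect in males was 2.60 ± 0.36 log2 (adjusted p = 1.55e-05). The interaction was -3.40 ± 0.79 log2 (adjusted p = 0.0234). It was -2.51 log2 without those 3 males (adjusted p = 0.0273). Its call was lost without any of 6 single female libraries, with adjusted p up to 0.0636, with exon-bin sums (-3.29 log2, adjusted p = 0.0749), and without replicate 1 (-3.78 log2, adjusted p = 0.0728) or 2 (-3.24 log2, adjusted p = 0.0963). Without control CT08 (a) the effect in males was 3.92 log2 and the interaction -3.67 log2.

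Saa2 lay at 6.14 to 14.2 CPM (median 8.82) in control males and at 11.5 to 19.8 CPM (median 15.2) in control females. On MCD, males lay at 8.99 to 43.4 CPM (median 17.4) and females at 4.32 to 12.8 CPM (median 9.38). The order of the sexes was thus opposite on the diets, with overlap on each. Control females were 0.76 ± 0.22 log2 higher than control males (adjusted p = 0.023), a call lost without control CT04 3 or CT08 3. MCD females were lower than MCD males, by -1.19 ± 0.23 log2 (adjusted p = 0.00444), in a contrast that called 2 members and 2.23% of all genes. Saa2 rose on MCD by 1.06 ± 0.18 log2 in males (adjusted p = 6.06e-05) and fell by 0.89 ± 0.26 log2 in females (adjusted p = 0.0126). The interaction was -1.95 ± 0.32 log2 (adjusted p = 0.00119). It was -1.68 log2 without the 3 MCD males (adjusted p = 0.00236), and its call was lost without replicate 1 (-1.62 log2, adjusted p = 0.139). The call in males was also lost without replicate 1 (0.77 log2, adjusted p = 0.104), as was that between control females and males (0.51 log2, adjusted p = 0.441). The change in females was -0.64 log2 with library totals alone (adjusted p = 0.0882).

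Saa1 had 0.55 ± 0.17 log2 in males (adjusted p = 0.013) and -0.30 ± 0.25 log2 in females (adjusted p = 0.418), and its interaction was not called (-0.85 ± 0.30 log2, adjusted p = 0.183). The call in males was lost without the 3 MCD males (0.24 log2, adjusted p = 0.254), without replicate 1 (0.36 log2, adjusted p = 0.513) and with exon-bin sums (0.55 log2, adjusted p = 0.0544). Saa1 was the other member called for sex on MCD, lower in females by -0.91 ± 0.22 log2 (adjusted p = 0.0267), a call lost without the 3 MCD males (adjusted p = 0.0757). Saa3, of the same family, was called in males (1.44 ± 0.31 log2, adjusted p = 0.000583) and had 0.98 ± 0.44 log2 in females, which did not pass (adjusted p = 0.105). Its interaction was -0.46 ± 0.53 log2 (adjusted p = 0.821). Without the 3 MCD males the values were 0.74 ± 0.22 log2 in males (adjusted p = 0.0129) and 0.90 ± 0.29 log2 in females (adjusted p = 0.0235), and the interaction took the opposite sign, 0.17 ± 0.37 log2 (adjusted p = 0.923). The call in males was lost without replicate 1 (0.89 log2, adjusted p = 0.124), and with library totals alone females were called too (1.25 log2, adjusted p = 0.0433).

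Apcs lay at 39.4 to 75.9 CPM (median 55.4) in control males and at 73.2 to 119.3 CPM (median 103.5) in control females. Without control CT08 (a), the control sexes did not overlap. On MCD they overlapped, at 136.6 to 419.2 CPM (median 257.5) in males and 146.0 to 326.3 CPM (median 191.5) in females. Control females were 0.84 ± 0.14 log2 higher (adjusted p = 0.000116). Apcs rose on MCD in both sexes, by 2.26 ± 0.12 log2 in males (adjusted p = 1.71e-12) and 1.11 ± 0.16 log2 in females (adjusted p = 2.53e-05). The interaction was -1.15 ± 0.20 log2 (adjusted p = 0.00218), and its call was lost without replicate 2 (-1.11 log2, adjusted p = 0.195).

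Orm2 in the gene table had a median of 26.7 CPM in control males and 44.7 CPM in control females, and of 31.7 and 28.3 CPM on MCD. Control females were 0.72 ± 0.13 log2 higher (adjusted p = 0.000299). The interaction was -1.02 ± 0.18 log2 (adjusted p = 0.00286) in the gene table and -2.05 log2 in the exon-bin sums (adjusted p = 0.00424). In the gene table its call was lost without replicate 1 (adjusted p = 0.113) or 2 (adjusted p = 0.0569), at a similar size. The 2 tables placed the change differently: in the gene table Orm2 fell in females (-0.81 ± 0.15 log2, adjusted p = 0.000269) and had 0.21 ± 0.11 log2 in males (adjusted p = 0.118). In the bins it rose in males (1.63 log2, adjusted p = 2.42e-05) and had -0.42 log2 in females (adjusted p = 0.32). Orm1 fell on MCD in both sexes, by -0.45 ± 0.11 log2 in males (adjusted p = 0.00145) and -1.13 ± 0.15 log2 in females (adjusted p = 7.51e-06), and its interaction was -0.68 ± 0.19 log2, just short of the threshold (adjusted p = 0.0612). At a similar size it was called with library totals alone (-0.70 log2, adjusted p = 0.0123), with DESeq2 (-0.67 log2, adjusted p = 0.0137), without control CT08 (a) (-0.60 log2, adjusted p = 0.0388) and without the 3 MCD males (-0.71 log2, adjusted p = 0.0491). With library totals alone the change of Orm1 in males was -0.19 log2 (adjusted p = 0.0724). In males Orm2 of the gene table was called higher with library totals alone (0.48 log2, adjusted p = 0.000622). The change of Crp was -0.28 ± 0.10 log2 in males (adjusted p = 0.0223) and -0.40 ± 0.14 log2 in females (adjusted p = 0.0331), and neither was called with library totals alone. In males it was -0.18 log2 without the 3 MCD males of high Lcn2 (adjusted p = 0.0886) and -0.24 log2 with exon-bin sums (adjusted p = 0.109), and both calls were lost without replicate 2. For Hp, Hpx and Crp the interaction was -0.10 ± 0.14, -0.15 ± 0.19 and -0.12 ± 0.17 log2, with none called. Over both diets, Hp was lower in females by -0.27 ± 0.07 log2 (adjusted p = 0.0163), against 9.44% of genes called for sex. That call was lost with library totals alone (-0.23 log2, adjusted p = 0.175) and without replicate 2 (-0.25 log2, adjusted p = 0.0617).

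**Figure D4:**
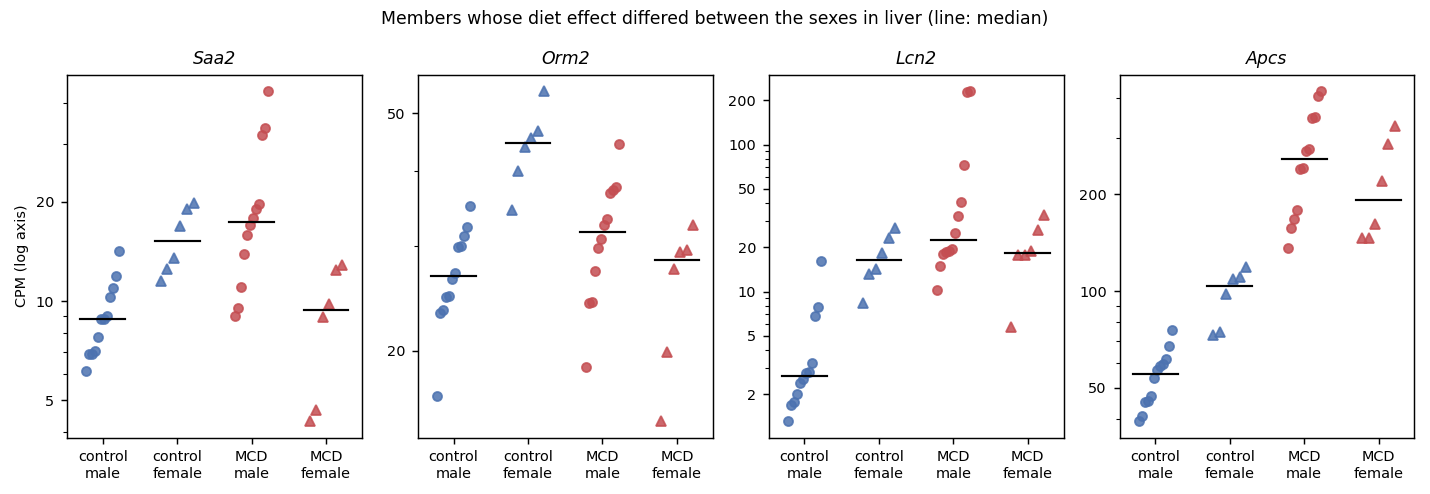
Level of the 4 transcripts with a called interaction of sex and diet (y axis, CPM on a log axis) in the 12 males and 6 females of each diet (x axis), sorted by level within a group, with lines at the median. The median of control females lies above that of control males for all 4, and for Saa2 the MCD females have a median of 9.38 CPM against 17.4 CPM in MCD males.

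Members also varied between libraries of the same group. After removal of group means and sex, 26 of the 45 pairs of members were correlated over 36 libraries (two-sided permutation test, adjusted over 45 pairs, with residuals treated as exchangeable), 24 positively and 2 negatively. The share of such pairs among other liver genes was not counted, so this number is not shown to be particular to the members. A shared difference between the sexes in the response to diet stays in these residuals. With the interaction of sex and diet removed as well, an alternative chosen after the data were seen, 23 pairs were called, 20 of them among the 26, and 3 of the 26 changed sign. Of the 23 pairs, 18 were positive. Newly called were Orm1 with Hp (r = -0.532) and Hpx (r = -0.554) and Lcn2 with Crp (r = -0.580), all negative. The closest pairs were Orm1 with Orm2 (r = 0.843, rho = 0.818) and Saa1 with Saa2 (r = 0.826, rho = 0.808). Leaving out the 2 libraries farthest from the median gave 0.827 and 0.780. Hp and Hpx followed at r = 0.792 and rho = 0.610, with 0.616 without those 2 libraries. The adjusted permutation p of r was 6e-05 for each of these 3 pairs. With the interaction removed their r was 0.739, 0.828 and 0.786. Without control CT08 (a) it was 0.849, 0.828 and 0.613 in the same order. Hpx then had r = 0.822 with Saa1 (0.519 with all libraries) and 0.798 with Saa3 (0.626). The place of Hp with Hpx after the first 2 pairs rested on that library. Saa1 and Saa2 are near-identical copies, while the sequences of Orm1 and Orm2 were not compared here. Counts of Orm2 are uncertain, and so are its correlations.

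Lcn2 went with Saa2 (r = 0.722, rho = 0.709), Saa1 (r = 0.665) and Orm2 (r = 0.649). With the interaction removed these were 0.418, 0.531 and 0.289, and the last was not called (adjusted permutation p = 0.150). The r of Apcs then moved from 0.532 to -0.128 with Saa2, from 0.622 to 0.137 with Orm2, from 0.591 to 0.259 with Orm1 and from 0.443 to -0.139 with Lcn2, and that of Saa2 with Orm1 from 0.448 to -0.047, none of them called. These 6 pairs were thus called only while the difference in diet effect between the sexes was left in. Crp went against Hpx (r = -0.523, adjusted permutation p = 0.00375) and Saa3 (r = -0.429, adjusted permutation p = 0.0163). By rho the pair of Crp and Hpx was called (rho = -0.535, adjusted permutation p = 0.00262), and those of Crp with Saa3 (rho = -0.360, adjusted permutation p = 0.0559) and Apcs (rho = 0.358, adjusted permutation p = 0.0568) and of Saa3 with Lcn2 (rho = 0.295, adjusted permutation p = 0.125) were not. Without the 3 MCD males of high Lcn2, the r of Lcn2 with Saa3 moved from 0.410 to -0.169 and that with Apcs from 0.443 to 0.852. That of Crp with Saa3 moved from -0.429 to -0.067 and that with Hpx from -0.523 to -0.344. The relations of Saa3 with Lcn2 and with Crp therefore rest on those 3 libraries. The r of Saa3 with Saa1 moved from 0.676 to 0.351 and that with Saa2 from 0.578 to 0.330, and the r of Lcn2 with Saa1 moved from 0.665 to 0.388. Of the 26 pairs, 18 had an r beyond 0.5 in either direction with all libraries and 12 without those 3. Within the correlations the libraries share depth, library kind and the scaling. With the kind of library removed as well, no called pair changed sign and the lowest positive r was 0.393.

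**Figure D5:**
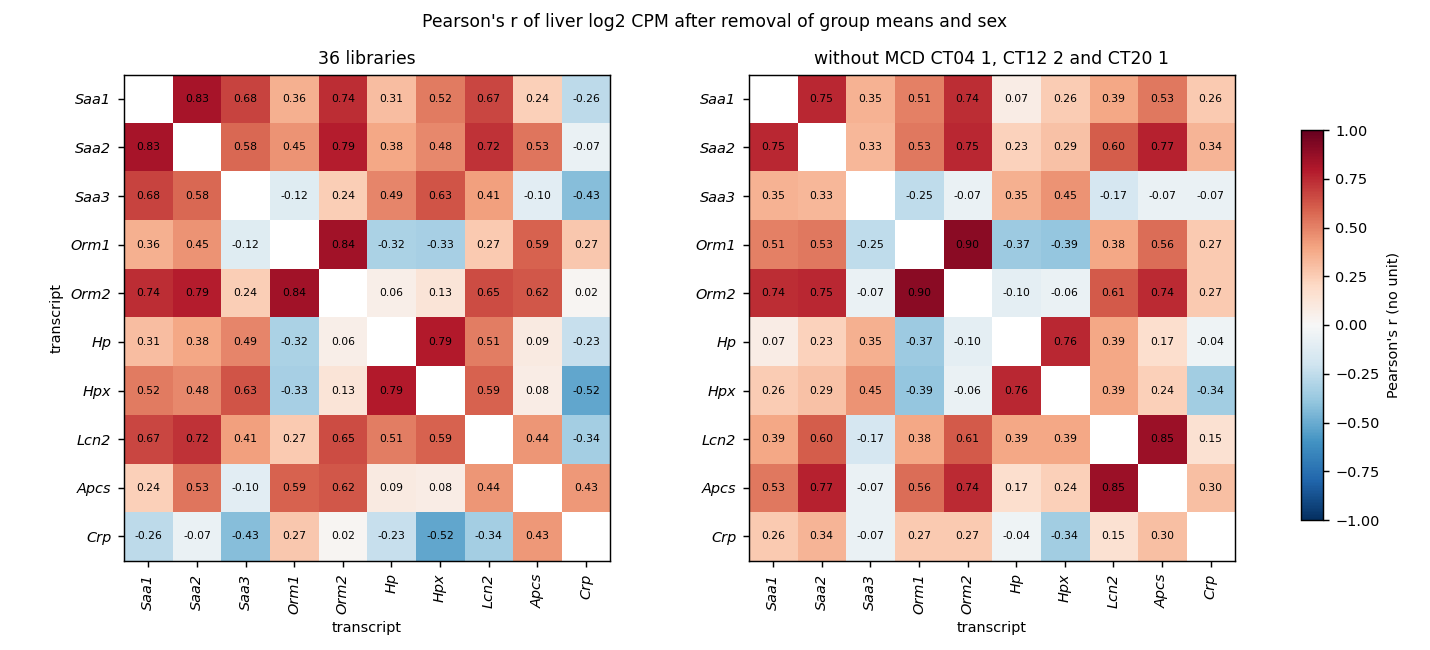
Pearson's r between the 10 transcripts (rows and columns) in liver after removal of group means and sex, over 36 libraries at left and without 3 MCD males at right; red is positive and blue negative. Saa1 with Saa2 has 0.83 and 0.75, and Lcn2 with Saa3 has 0.41 and -0.17.

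Some markers of neutrophils and macrophages were high in some of the 3 MCD males of high Lcn2, and others were not. Of 10 neutrophil markers, 4 have a row in the liver table, and Ly6g, Mpo, Elane, Camp, Ngp and Ltf were not analysed here. Their sum lay at 0 to 2.30 CPM on control and at 0.166 to 11.3 CPM on MCD, where MCD CT04 1 was highest, and all 4 were called higher on MCD. S100a8 was at 3.54, 1.53 and 1.92 CPM in MCD CT04 1, CT12 2 and CT20 1 and at no more than 1.2 CPM in the other MCD libraries. It was at 0 in 5 libraries. S100a9 (6.10, 1.84 and 3.53 CPM) passed the 2.65 CPM of the next highest MCD library in 2 of the 3, Cxcr2 lay above all other MCD libraries in MCD CT04 1 alone of the 3, and Retnlg (0.461, 0.478 and 0 CPM) did so in MCD CT04 1 and CT12 2. Of 8 Kupffer cell and macrophage markers, 7 were called higher on MCD, and their sum lay at 281.6 to 682.6 CPM on control and at 374.3 to 809.5 CPM on MCD. The highest control was control CT08 (a) and the highest MCD library was CT12 2. Cd68 was at 57.6, 59.3 and 28.6 CPM in the 3 males, against up to 33.4 CPM in the other MCD libraries, and Adgre1 was at 49.1, 43.3 and 37.7 CPM, against up to 42.9 CPM. Clec4f (139.6 to 174.7 CPM) and Vsig4 (45.1 to 48.9 CPM) were below the 186.0 and 63.7 CPM reached there. Of 4 red cell markers, 3 were called lower on MCD and 0 higher, with sums of 103.3 to 374.1 CPM on control and 74.3 to 233.2 CPM on MCD. Without these 3 libraries 3 of the 4 neutrophil markers and 5 of the 8 macrophage markers were called higher. Of 7 hepatocyte markers, 4 were called lower and 0 higher, or 2 and 2 with library totals alone. The part of these cells in the members' changes was not tested.

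Other genes of the acute phase did not follow 1 direction. Of 25 other positive acute phase genes tested, 8 were called higher and 10 lower on MCD, with a median of -0.20 log2 against 0.02 log2 over all genes. The split was 10 higher and 7 lower with library totals alone. Il1rn, the interleukin-1 receptor antagonist (2.31 ± 0.29 log2), the metallothioneins Mt2 (1.58 ± 0.51 log2) and Mt1 (1.19 ± 0.41 log2), and Cd14, a co-receptor for endotoxin (1.18 ± 0.23 log2), rose most among those of at least 1 CPM. Serpina3k (-1.75 ± 0.17 log2), the mannose-binding lectin Mbl2 (-0.92 ± 0.07 log2), the antitrypsin Serpina1a (-0.77 ± 0.08 log2) and the fibrinogen chain Fgg (-0.64 ± 0.07 log2) fell most. Of 12 negative acute phase genes, whose transcripts fall in a classical response, 6 were called lower and 2 higher. The growth factor Igf1 (-1.13 ± 0.09 log2), Mug1 (-0.67 ± 0.12 log2), Hrg (-0.62 ± 0.10 log2) and Fetub (-0.54 ± 0.08 log2) fell, and Apoa4 (2.07 ± 0.23 log2) and Ahsg (0.25 ± 0.07 log2) rose. With library totals alone 6 were higher and 4 lower.

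Of 16 cytokines and receptors that drive these genes, 13 were tested, 6 were called higher and 2 lower, with a median of 0.28 log2, or 9 and 2 with a median of 0.54 log2 with library totals alone. Il1b (0.81 ± 0.17 log2), the tumour necrosis factor receptor Tnfrsf1a (0.37 ± 0.05 log2), the oncostatin M receptor Osmr (0.34 ± 0.12 log2) and Il1r1 (0.28 ± 0.11 log2) rose. Lifr, the receptor of leukaemia inhibitory factor (-0.98 ± 0.11 log2), and Il1rap, the interleukin-1 co-receptor (-0.86 ± 0.10 log2), fell. Of 16 signal transducers and transcription factors, 6 were higher and 3 lower, or 10 and 1 with library totals alone. Nfkbiz (0.69 ± 0.09 log2), Cebpd (0.53 ± 0.14 log2), Nfkbia (0.42 ± 0.07 log2) and Rela (0.27 ± 0.05 log2) rose, and the glucocorticoid receptor Nr3c1 (-0.48 ± 0.05 log2) and Cebpa (-0.25 ± 0.07 log2) were among those that fell. Stat3 and its target Socs3, named after their values were seen, had -0.07 ± 0.05 and -0.24 ± 0.23 log2 and were not called. Of 10 receptors and scavengers of acute phase proteins, 6 were higher and 1 lower, or 9 and 1 with library totals alone. Cd36 (1.47 ± 0.18 log2), Hmox1, which degrades haem (1.00 ± 0.17 log2), and the Fc receptors Fcgr1 (0.75 ± 0.15 log2) and Fcgr3 (0.40 ± 0.11 log2) rose, and Lrp1, the hemopexin receptor (-0.38 ± 0.06 log2), fell.

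In SCN, Hp lay near 1 CPM, at 1.14 ± 0.877 CPM on control and 0.955 ± 0.785 CPM on MCD (SD, n = 18 each). Its diet effect was -0.27 ± 0.45 log2 (edgeR adjusted p = 1), against 0.0635% of SCN genes called, and neither DESeq2, limma-voom nor an unadjusted p under 0.05 called it. Its sign was not stable: the value was 1.18 ± 0.69 log2 without replicate 1 and 0.04 log2 with limma-voom. The difference in diet effect of SCN minus liver was -0.92 ± 0.33 log2 (adjusted p = 0.0264, against 34.7% of 14491 genes). That test treats the tissues as independent, and limma-voom gave -0.64 log2 (adjusted p = 0.312). Without replicate 1 the difference was 0.45 log2 in the opposite direction (adjusted p = 0.678), and without replicate 2 it was -1.19 log2 (adjusted p = 0.0608). In SCN, 3 libraries list Hp at a count of 0, control CT20 2, control CT20 3 and MCD CT20 3, while their exon-bin files hold 14, 46 and 18 counts for it. The SCN value of Hp is therefore uncertain. Hp in SCN was not called rhythmic on control (15.1% of SCN genes called) or on MCD (16.1%).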

How the data were processed

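Gene-level counts were analysed from 36 liver and 36 SCN libraries, with exon-bin counts as an alternative. The authors deposited whole-number counts per gene in 1 table per tissue and counts per exon bin in 1 file per library. The submitters' processing notes name Trimmomatic, HISAT2, StringTie, DESeq2 and the build GRCm39, with no role, order or version. Liver exon-bin files of control CT00 1 and 2 were incomplete, and 34 were used. Depth is given with the data, and errors of fitted values are standard errors. No label says that libraries are from separate mice, so that p-values measure the spread between libraries, which may be technical.

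Counts were filtered with filterByExpr (minimum count 10), scaled by TMM and fitted with edgeR 4.0.16 (R 4.3.3) by robust quasi-likelihood over the 12 groups of diet and time in each tissue, with sex as a term. Benjamini-Hochberg adjustment ran over all genes tested, with a threshold of 0.05. Every adjusted p in the text is edgeR's unless limma 3.58.1 (voom) or DESeq2 1.42.0 is named. Rhythm was a contrast of cosine and sine over 24 h, and sex by diet was added to the model as an interaction. The tissue-by-diet test was fitted over both tissues together. Diet effects within a sex and sex effects within a diet are contrasts of that model added after results were seen. Correlations used log2 CPM (prior count 2) with group means and sex removed and 100000 permutations. The scripts were tested on simulated counts.

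The members and the gene lists were chosen with earlier results of these data known. Named list genes were those called with the largest change and a mean of at least 1 CPM, up to 4 in each direction. For each member the most alike genes that are not members were taken by Pearson's r. Alternatives were RLE factors, library totals alone, DESeq2, limma-voom, no filter, a replicate block, leaving out libraries or replicate numbers, the kind of library, exon-bin sums, the prior count and, for correlations, removal of the interaction of sex and diet. Promoter windows and positions are from RefSeq and GENCODE on GRCm38, used without conversion to GRCm39.

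The 2 control CT08 liver columns of the same name carry no replicate number and were left out of the block. Liver replicate numbers did not pair the samples, since 5 of 16 pairs of same-numbered libraries had a correlation over 0.1 (range -0.215 to 0.291), and 3 of 16 did in SCN. Some genes that these rules would name are not reported here.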

Additional observations from a re-analysis of the deposited data

Results flagged for a closer look

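The diet effect differed between the sexes for 4 transcripts, by a test of the interaction itself that called 1.77% of all genes. Leaving out replicate 1 lost the calls of Saa2, Orm2 and Lcn2, and leaving out replicate 2 lost those of Orm2, Lcn2 and Apcs. It was lower in females by -1.95 log2 for Saa2, -1.02 log2 for Orm2, -3.40 log2 for Lcn2 and -1.15 log2 for Apcs. For Orm2 the exon-bin sums gave -2.05 log2 and placed the change in males rather than females, so its values are uncertain. The sums of neutrophil and of macrophage markers were each highest in 1 of the MCD males, and their part in these differences was not tested. The labels name 1 female per group while the protocol speaks of males only. The rhythm of Crp differed between the diets by 1.09 log2 (peak to trough of the difference), a call lost with the replicate block (0.99 log2, adjusted p = 0.0533). The diet effect on Hp differed between SCN and liver by -0.92 log2, with Hp near 1 CPM in SCN. That difference was 0.45 log2, in the opposite direction, without replicate 1 and was not called with limma-voom (-0.64 log2, adjusted p = 0.312).

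Exon-bin files of SCN hold counts for members that have no row in the SCN gene table. Over 36 libraries these were 386 counts for Saa1, 66 for Saa2, 22 for Orm1, 384 for Hpx, 358 for Lcn2 and 26 for Crp, each above the 3 counts that a count of 0 allows. Of the Lcn2 counts, 94 were in control CT20 1. Orm1 was at 0 in 34 of the 36 libraries and Crp in 30, and a single library held 14 of the counts of each. Whether these counts come from SCN cells was not tested. The 2 of 7 hepatocyte markers with a row in the SCN table summed to 2.34 to 27.3 CPM on control and 2.21 to 17.6 CPM on MCD.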

How the results depend on the processing

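The count of members called for diet was 7 and stayed at 7 without any single library, and between 6 and 9 without a replicate number. The values below are counts of members called, against the main count. With exon-bin sums CT0 had 0 in place of 3, and 1 without control CT08 1 as well. At CT4, limma-voom and leaving out the 3 MCD males gave 3 in place of 5. At CT8, DESeq2 gave 2 in place of 1, and leaving out control CT08 (a) or using exon-bin sums without control CT08 1 gave 3. Leaving out the 3 MCD males gave 3 at CT12 in place of 6 and 1 at CT20 in place of 3, where DESeq2 gave 5. The count for sex was 1, and 0 with library totals alone, 3 with DESeq2, and 2 with 34 libraries, without control CT08 (a) or with exon-bin sums without control CT08 1. For tissue by diet limma-voom gave 0 in place of 1. The cause of these changes was not tested.

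Leaving out 1 library gave 1 to 4 at CT0, 3 to 6 at CT4, 0 to 3 at CT8, 3 to 7 at CT12, 3 to 5 at CT16 and 1 to 4 at CT20. It gave 0 for rhythm on control, 1 to 3 for rhythm on MCD, 1 for the rhythm difference, 1 to 3 for sex and 3 to 5 for sex by diet. Leaving out a replicate number gave 1 to 3 at CT0, 2 to 5 at CT4, 0 to 1 at CT8, 1 to 3 at CT12, 1 to 2 at CT16 and 0 to 2 at CT20. It gave 0 for rhythm on control, 0 to 3 for rhythm on MCD, 0 to 1 for the rhythm difference and for sex, 1 for sex by diet and 0 to 1 for tissue by diet. Lcn2 lost its diet call without replicate 1 (1.95 log2, adjusted p = 0.0664) or 2 (1.62 log2, adjusted p = 0.0633).

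With the replicate block, which leaves 34 liver libraries, the diet count stayed at 7, CT8 had 0 (also 0 in those 34 libraries without the block) and the rhythm difference had 0, since Crp had 0.99 log2 (adjusted p = 0.0533). Directions reversed for the diet effect on Orm2 with exon-bin sums (0.84 log2, and 0.81 log2 without control CT08 1) and for tissue by diet of Hp, which ranged from -1.19 to 0.45 log2 without a replicate number. Over single members, 7851 alternative values kept their side of the threshold, 209 lost a call, 101 gained one and 3 took the opposite sign with a call in the reported or the alternative value. Another 74 of 6616 signed values took the opposite sign with no call in either.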

Other observations

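Saa4, a constitutive serum amyloid A gene listed with the other positive acute phase genes, fell on MCD from 183.1 ± 103.8 to 122.6 ± 24.7 CPM (-0.46 ± 0.12 log2, adjusted p = 0.00254). Orm3, named after its values were seen, lay at 6.84 to 15.6 CPM in control females, 0 to 4.69 CPM in control males and 0.504 to 2.45 CPM on MCD. All 6 control females lay above every control male, and Orm3 was not called for diet (-0.82 ± 0.48 log2, adjusted p = 0.165).

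For each member the most alike gene was sought among genes that are not members and have a mean of at least 1 CPM. The measure was Pearson's r of log2 CPM over 36 liver libraries after removal of group means and sex. The closest gene was Adamts9 for Saa1 (r = 0.814), Sorl1 for Saa2 (r = 0.765), Serpinb6a for Saa3 (r = 0.815), Cpb2 for Orm1 (r = 0.90) and Rhbg for Orm2 (r = 0.798). It was Htatip2 for Hp (r = 0.858), Itgax for Hpx (r = 0.918), Rfk for Apcs (r = 0.884) and Chchd3 for Crp (r = 0.871). Another member was closer for Saa1 and Saa2, with each other (r = 0.826), and for Orm2, with Orm1 (r = 0.843). These are descriptions, and the libraries share depth, kind, scaling and the difference in diet effect between the sexes.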
